A study of Homo sapiens with 4 samples.

Results

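The 78 genes described here are those with an MRPL or MRPS symbol, the symbols given to proteins of the mitochondrial ribosome, and the protein of 1 of them, MRPS36, is no longer counted as ribosomal. They were picked out of the 62778 gene-naming entries of the expression table by that form of symbol and by a protein-coding annotation, and where several entries named a symbol the one with the highest mean count was kept. All 4 libraries came from K562, an established human erythroleukemia line, and all of them overexpressed the S34F mutant of the splicing factor U2AF1, DMSO controls included. In 2 libraries the cells had been given the solvent DMSO, and in the other 2 they had been given SF1-8, an inhibitor directed at the UHM domain of U2AF1, at 30 uM. Total RNA freed of ribosomal RNA was sequenced after 48 h in both groups. The labels do not say whether the libraries of a group came from separate cultures, so p-values measure only the spread between these libraries, which may be technical. Cells without the mutant were not analysed here. The comparison of SF1-8 with DMSO asks how the transcriptome of K562-U2AF1 S34F cells responded to the compound.

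Mitochondria carry their own ribosome, which translates the few mRNAs of the mitochondrial genome into core subunits of the respiratory chain and the ATP synthase. Its ribosomal RNAs are made in the organelle, while every one of its proteins is encoded in the nucleus, translated in the cytosol and imported, so that the proteins must be supplied in step with the rRNA. Many of them have a counterpart in bacterial ribosomes, and the others are found only in mitochondria. The large subunit holds the peptidyl transferase centre and the exit tunnel, and the small subunit holds the mRNA and the decoding centre.

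By this division, 51 of the genes encode proteins of the large subunit and 26 encode proteins of the small subunit. MRPS30 and MRPS18A were placed with the large subunit, where their proteins reside in spite of their names. The remaining gene, MRPS36, keeps the symbol although its protein is now taken as a component of the 2-oxoglutarate dehydrogenase complex. All 78 passed edgeR's filter on low counts, and the lowest mean count of a gene over the 4 libraries was 684.5.

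The total count per library was 45522905 and 64387710 with DMSO, and 67554610 and 64305922 with SF1-8. The erythroid identity of the cells could be checked on 8 marker entries, whose summed level was 241 to 266 FPKM (fragments scaled to transcript length and library depth) in the 4 libraries, with GATA1 at 75.9 to 79.1. The 10 stromal markers, which K562 cells should lack, summed to 10.6 and 5.23 FPKM with DMSO and to 2.68 and 0.667 FPKM with SF1-8. The 9 of them that passed the filter had a median log2 fold change of -2.55, and 6 of the 9 were lower at an unadjusted p under 0.05 in the edgeR quasi-likelihood test. Their part in the results below was not tested. Lymphoid and monocyte markers, 8 entries, summed to 8.73 to 11.6 FPKM. The mitochondrial side of the ribosome could not be followed, because MT-RNR1 and MT-RNR2, the ribosomal RNAs of the small and the large subunit, and the 13 mitochondrial mRNAs are listed at 0 in every library.

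The genes were transcribed at levels that spanned from 1.22 to 83.0 FPKM in the mean over the 4 libraries, and 42 of the 78 reached 10 FPKM. The subunits were alike in this respect, with a median level of 11.7 FPKM for the large and 11.01 FPKM for the small subunit. In the same libraries the proteins of the cytosolic ribosome, 86 of whose 88 genes passed the filter, had a median level of 75.1 FPKM, and the nuclear genes of the respiratory chain had a median of 15.8 FPKM. Summed over the 78 genes, the level was 1335 and 1308 FPKM in the DMSO libraries and 1297 and 1333 FPKM in the SF1-8 libraries. The groups overlapped in this sum.

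The highest level belonged to MRPL41, a mitochondria-specific protein of the large subunit, with 81.4 and 83.5 FPKM with DMSO and 85.4 and 81.7 FPKM with SF1-8. MRPL37, also of the large subunit, was second with 62.9 and 63.2 FPKM with DMSO and 46.9 and 64.97 FPKM with SF1-8. Only the first SF1-8 library was low. MRPS18B led the small subunit with 54.2 and 57.0 FPKM against 56.6 and 62.9 FPKM. MRPS34, a small-subunit protein needed for the stability of its rRNA, had 47.2 and 54.6 FPKM against 53.1 and 50.7 FPKM. MRPL14, the protein to which the assembly factor MALSU1 binds, had 53.6 and 47.0 FPKM against 49.8 and 49.6 FPKM. In each of these 5 genes the DMSO and the SF1-8 libraries overlapped, and from the second place to the fifth each gene's libraries overlapped those of its neighbour in the order.

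At the other end of the order was MRPS28, with 1.37 and 1.15 FPKM with DMSO and 1.19 and 1.18 FPKM with SF1-8. Its entry also takes in the neighbouring gene TPD52. MRPL46 stood at 1.90 and 1.85 FPKM against 1.74 and 1.60 FPKM, and shares its entry with DET1. MRPS33 had 2.98 and 2.49 FPKM against 2.90 and 3.06 FPKM, which overlapped. MRPL53, in an entry with CCDC142, had 3.19 and 3.35 FPKM against 3.42 and 3.05 FPKM, and MRPL43 had 3.72 and 3.48 FPKM against 3.03 and 3.72 FPKM. The libraries of MRPS28 lay below all those of MRPL46, and these below all those of MRPS33, while MRPS33, MRPL53 and MRPL43 overlapped in turn. Shared entries were found in 3 of these 5 genes. Across the whole family, the 17 genes whose entry names more than 1 gene had a median of 5.62 FPKM, and the 61 genes whose entry names no other gene had a median of 14.0 FPKM. The ones with the highest mean counts were MRPS6 with SLC5A3, MRPL12 with SLC25A10, MRPL28 with PGAP6, MRPL2 with CUL7, and MRPL42 with RN7SL737P. Of these, MRPS6 had 10.8 and 9.79 FPKM against 9.44 and 9.43 FPKM, MRPL28 had 14.1 and 14.0 FPKM against 12.5 and 14.3 FPKM, and MRPL2 had 10.1 and 12.2 FPKM against 10.4 and 12.4 FPKM. Such an entry is often longer and holds the reads of its neighbours too, so its level cannot be read as that of the ribosomal gene alone.

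**Figure D1:**
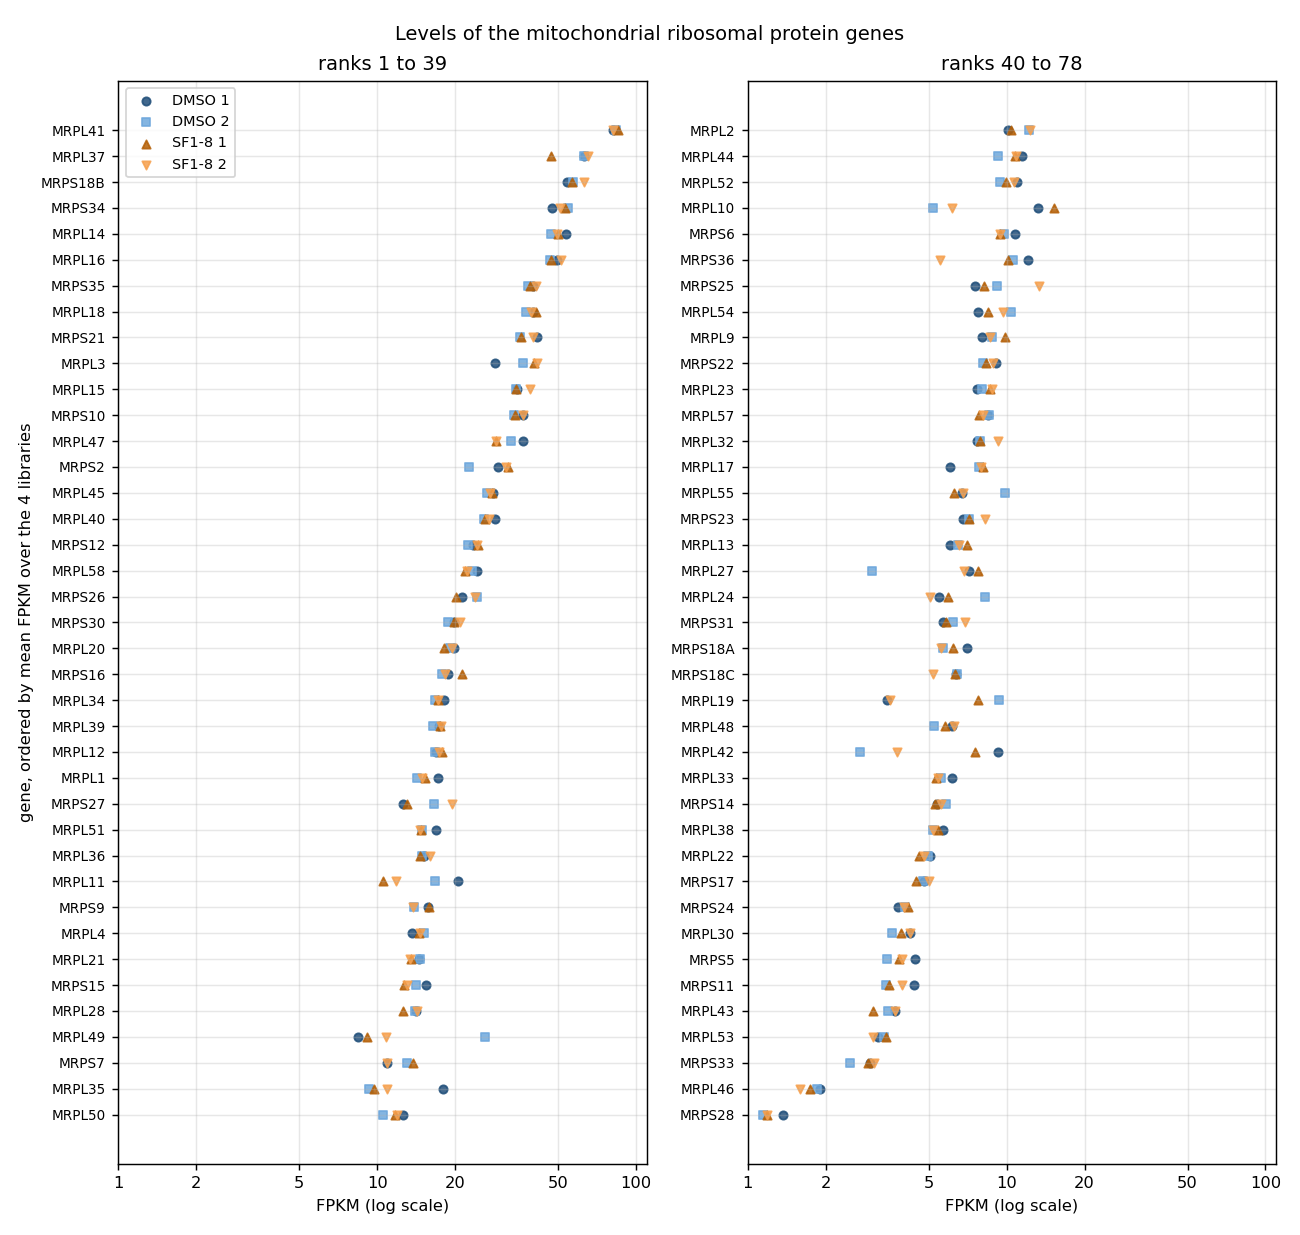
FPKM (horizontal, log scale) of each of the 78 genes in the 4 libraries, ordered from the highest mean at the top left to the lowest at the bottom right. Blue symbols are the DMSO libraries and orange symbols the SF1-8 libraries. For most genes the 4 symbols lie on top of each other, from MRPL41 at 83.0 FPKM to MRPS28 at 1.22 FPKM, while MRPL49, MRPL10, MRPL19 and MRPL42 spread widely within a group.

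With SF1-8, most mitochondrial ribosomal protein genes were near their DMSO levels. Under the quasi-likelihood test of edgeR, with p-values adjusted by the Benjamini-Hochberg method over all entries, none of the 78 passed the threshold of 0.05, against a background of 0.0420% of the 26167 entries tested, and the lowest adjusted p of a gene was 0.567. At an unadjusted p under 0.05 in that test, 3 of the 78 (3.85%) were set apart, against 4.33% of all entries and 4.38% of the 9142 entries with at least the mean count of the lowest member. Of these, 2 were lower with SF1-8 (background 2.54%) and 1 was higher (background 1.78%). The share was close to the background. DESeq2 called 1 of the 78, MRPL11, against 0.652% of the entries it adjusted. In such bulk samples fewer cells of a type and less RNA per cell cannot be told apart.

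The sizes of the differences were small for most genes. The fitted log2 fold change lay within 0.1 of 0 in 47 of the 78 genes and within 0.2 in 65, and exceeded 0.5 in size in 4. Its median was 0.032, with quartiles of -0.065 and 0.098, beside a median of -0.011 over all entries tested. The sign of this median depended on the scaling, since after rescaling FPKM to a common sum it was -0.12 for these genes and -0.13 for all entries. The 95% interval of the difference lay inside a 2-fold change in either direction for 69 genes and inside a 1.5-fold change for 63.

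**Figure D2:**
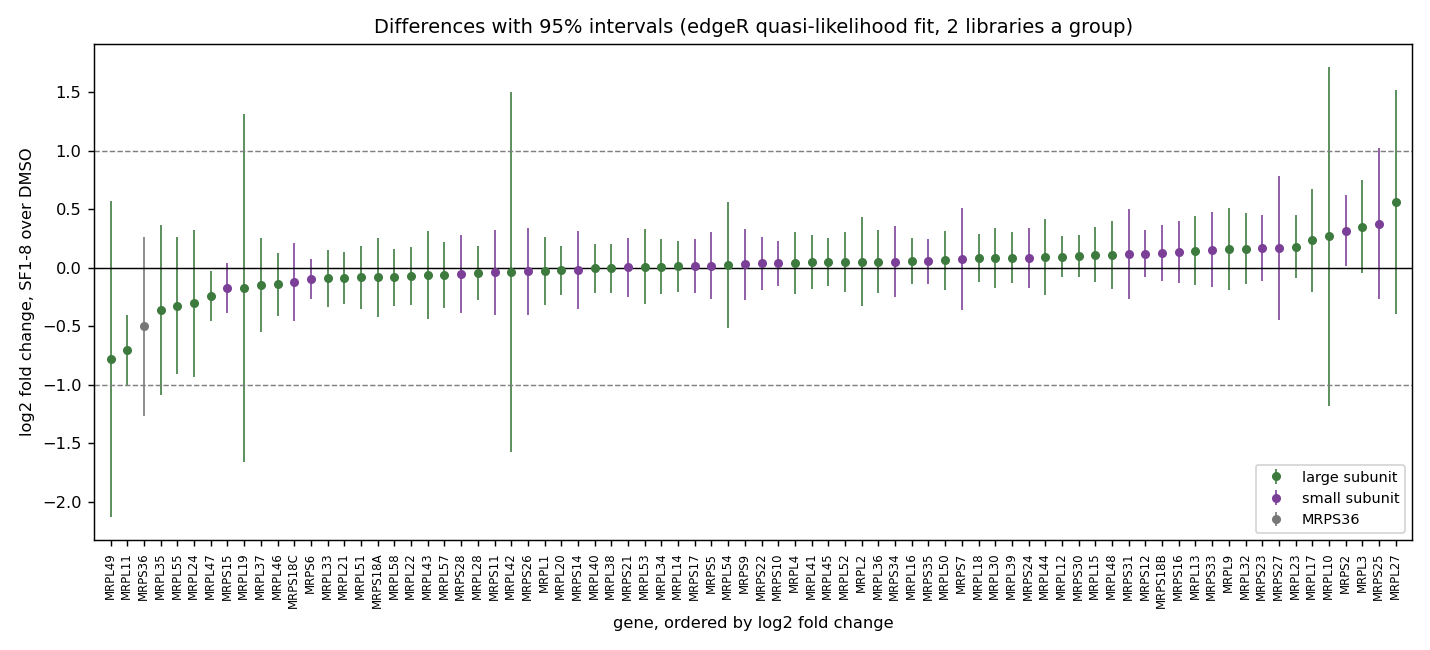
Log2 fold change of SF1-8 over DMSO (vertical) for each of the 78 genes, in rising order, with its 95% interval from edgeR's quasi-likelihood fit on 2 libraries a group. Dashed lines mark a 2-fold change. Nearly all points lie close to 0, MRPL11 at -0.70 has an interval well below 0, and the 9 intervals that cross or reach a dashed line are mostly wide ones such as those of MRPL49, MRPL19, MRPL42 and MRPL10.

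By class, the median log2 fold change was 0.013 for the large subunit and 0.045 for the small subunit, turning to -0.12 and -0.11 after rescaling to a common sum. Within the large subunit it was 0.052 for the 29 proteins with a bacterial counterpart and -0.0050 for the 22 classed as mitochondria-specific. Within the small subunit it was 0.017 for 16 proteins with a counterpart and 0.12 for the 10 classed as mitochondria-specific. MRPS18A and MRPS18B were placed in the mitochondria-specific classes, although they are related to a bacterial protein, as MRPS18C is. Among these 10 genes of the small subunit, 9 had a fold change above 0, against 47 of the 78 genes and 12657 of the 26167 entries tested. Such signs depend on the scaling, and they were not counted again after rescaling to a common sum. None of the 10 reached an unadjusted p under 0.05 in the edgeR quasi-likelihood test.

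The libraries of both groups did not overlap in FPKM in 23 of the 78 genes (29.5%), against 34.2% of all entries tested. SF1-8 was above DMSO in 10 of them (12.8%, background 14.2%) and below in 13 (16.7%, background 20.0%). The genes on the higher side were MRPL3, MRPS2, MRPS12, MRPL39, MRPL12, MRPL23, MRPL32, MRPL17, MRPS23 and MRPL13. Those on the lower side were MRPL47, MRPL58, MRPL51, MRPL11, MRPL21, MRPS15, MRPS6, MRPS36, MRPL57, MRPS18C, MRPL33, MRPL22 and MRPL46. Members of both subunits stood on either side.

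MRPL11 had the lowest p of the family. It encodes the protein at the base of the stalk of the large subunit, where translation factors dock, and its entry lies at chr11:66435075-66438848 on the minus strand (hg38). The entry spans 3774 bp, against 31664 bp for the gene in GENCODE release 29, so transcripts that begin upstream may lie outside it. The level of MRPL11 was 20.4 and 16.7 FPKM with DMSO and 10.5 and 11.8 FPKM with SF1-8. Both SF1-8 libraries were below both DMSO libraries by more than the spread within either group. The log2 fold change was -0.70 with a standard error of 0.118 and a 95% interval from -1.0004 to -0.40, and edgeR's quasi-likelihood test gave an unadjusted p of 0.0017 and an adjusted p of 0.567. The call depended on the tool, and over the alternatives the adjusted p ran from 0.00289 in DESeq2 to 0.811 in edgeR with a replicate block. Leaving out any 1 library gave fold changes between -0.80 and -0.59.

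MRPL47 encodes the counterpart of bacterial L29 beside the exit tunnel, and its entry lies at chr3:179588285-179604640 on the minus strand. The level was 36.5 and 33.0 FPKM with DMSO and 28.7 and 28.8 FPKM with SF1-8, so that the groups did not overlap. Its log2 fold change was -0.24 with a standard error of 0.084, an unadjusted p of 0.033 and an adjusted p of 0.970 by edgeR's quasi-likelihood test. This entry overlaps the gene ACTL6A at its edge, and the strand of the counting is not given in the sources used here.

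MRPS2, a protein of the small subunit with a bacterial counterpart, was the gene with an unadjusted p under 0.05 on the higher side, in an entry at chr9:135499984-135504673 on the plus strand. The entry overlaps the gene C9orf116. MRPS2 had 29.4 and 22.7 FPKM with DMSO and 32.1 and 31.4 FPKM with SF1-8. The DMSO libraries differed more from each other than the first of them differed from SF1-8. The log2 fold change was 0.32 with a standard error of 0.118, an unadjusted p of 0.042 and an adjusted p of 0.970 by edgeR's quasi-likelihood test. It was 0.47 without the first DMSO library and 0.18 without the second. MRPL3, which reaches toward the peptidyl transferase centre, had a similar pattern with 28.4 and 36.7 FPKM against 40.4 and 41.4 FPKM. Its log2 fold change was 0.35 with a standard error of 0.155, at an unadjusted p of 0.071 by edgeR's quasi-likelihood test, and was 0.14 without the first DMSO library and 0.60 without the second.

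**Figure D3:**
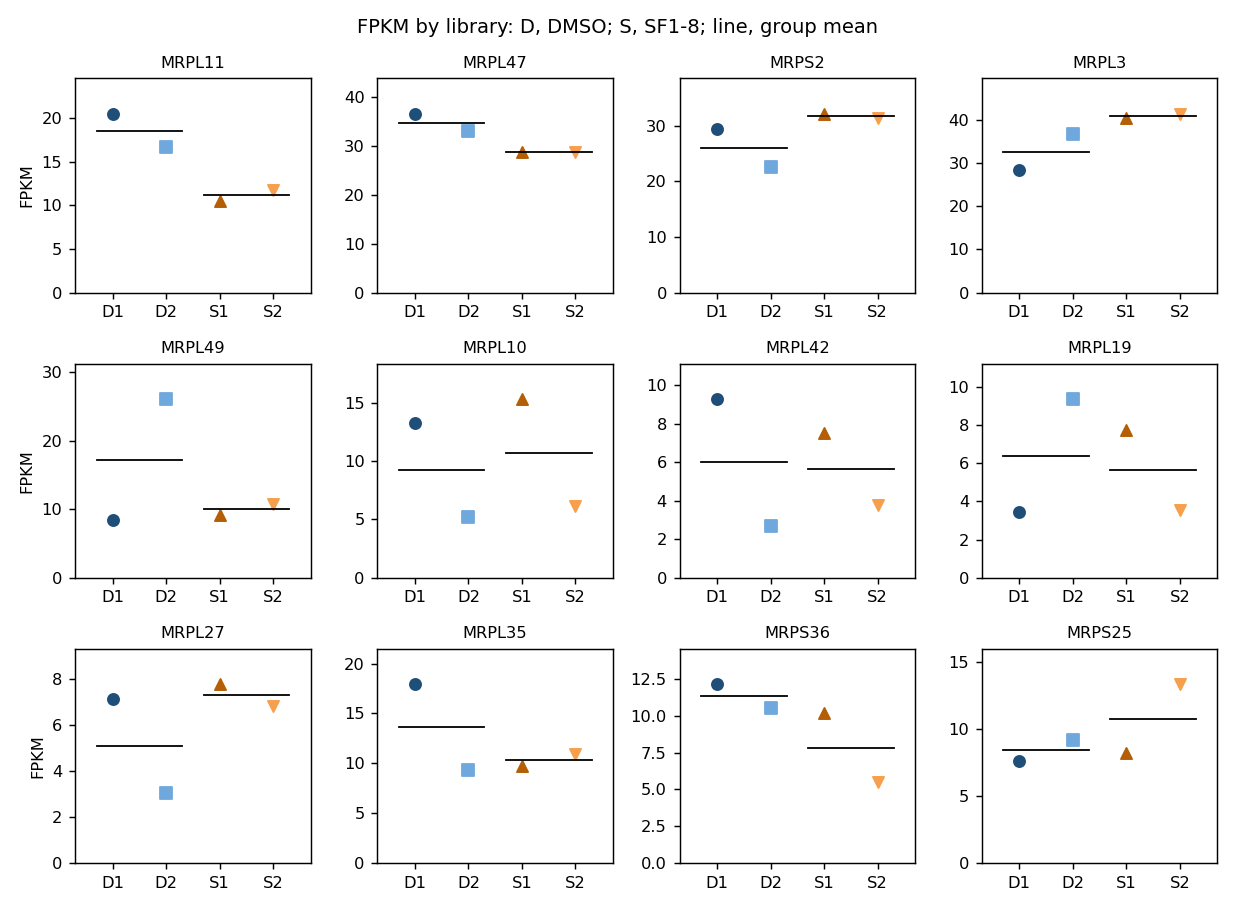
FPKM (vertical, each panel from 0) of 12 genes in the 4 libraries, D1 and D2 for DMSO and S1 and S2 for SF1-8, with a line at each group's mean. In MRPL11, MRPL47, MRPS2 and MRPL3 of the top row the groups do not overlap, whereas in MRPL49, MRPL10, MRPL42 and MRPL19 of the middle row the libraries of a group lie further apart than the group means do.

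The proteins of the stalk and its base differed from one another in their patterns. MRPL10, a protein of the stalk, had 13.2 and 5.17 FPKM with DMSO and 15.3 and 6.15 FPKM with SF1-8. The second library of each group was low, by a factor of 2.55 with DMSO and 2.48 with SF1-8, and its log2 fold change of 0.27 carried a standard error of 0.570. It turned to -0.23 without the second DMSO library and to -0.53 without the first SF1-8 library, and was 1.04 without the first DMSO library and 0.79 without the second SF1-8 library. MRPL12, which forms the mobile arm of the stalk, had 16.9 and 16.6 FPKM against 17.8 and 17.4 FPKM. Here the groups did not overlap but differed little, and the entry also holds SLC25A10. Among these 3 proteins, MRPL11 alone reached an unadjusted p under 0.05 in the edgeR quasi-likelihood test.

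Around the exit tunnel, MRPL22, MRPL23, MRPL24 and MRPL47 have bacterial counterparts and MRPL45 fastens the ribosome to the inner membrane. MRPL22 had 5.06 and 4.99 FPKM with DMSO and 4.59 and 4.78 FPKM with SF1-8. MRPL23 had 7.67 and 8.02 FPKM against 8.66 and 8.81 FPKM. In MRPL22 SF1-8 was on the lower side and in MRPL23 on the higher side, without overlap in either. MRPL24 had 5.50 and 8.26 FPKM against 5.91 and 5.07 FPKM, with a high second DMSO library. MRPL45 had 28.0 and 26.5 FPKM against 27.8 and 27.4 FPKM, and the groups overlapped in both genes.

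Several members have a further role besides their place in the ribosome. MRPL58, a peptidyl-tRNA hydrolase that rescues stalled mitochondrial ribosomes, had 24.3 and 23.2 FPKM with DMSO and 21.8 and 22.3 FPKM with SF1-8. MRPS12, the decoding-centre protein that in bacteria is the site of streptomycin resistance, had 23.3 and 22.5 FPKM against 24.6 and 24.2 FPKM. The groups were apart in both genes, downward in MRPL58 and upward in MRPS12, and neither reached an unadjusted p under 0.05 in the edgeR quasi-likelihood test. MRPL44, which carries a ribonuclease III-like fold, had 11.5 and 9.29 FPKM against 10.8 and 10.9 FPKM. MRPS30 of the large subunit had 19.8 and 18.8 FPKM against 19.7 and 20.8 FPKM. Both overlapped between the groups.

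The MRPS18 paralogs are related to a single bacterial protein but sit in different places. MRPS18B of the small subunit was by far the highest of them, at the levels given above. MRPS18A, in the large subunit, had 7.04 and 5.70 FPKM with DMSO and 6.22 and 5.56 FPKM with SF1-8. MRPS18C, in the small subunit, had 6.36 and 6.43 FPKM against 6.32 and 5.20 FPKM. The levels of MRPS18A and MRPS18C overlapped each other. Between the groups, only MRPS18C did not overlap, with SF1-8 on the lower side. None of the paralogs reached an unadjusted p under 0.05 in the edgeR quasi-likelihood test.

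For a part of the family, the spread between replicates set the limit. The median fold between the FPKM of the libraries of a group was 1.10 with DMSO and 1.08 with SF1-8, and the larger of both had a median of 1.15. Over the same 9142 entries that median was 1.13. In 9 of the 78 genes (11.5%) the larger fold exceeded 1.5, and in 5 genes (6.41%) it exceeded 2, against 10.2% and 4.03% of those entries. Of the 9 genes whose interval reached beyond a 2-fold change, 8 were among the ones with a replicate fold over 1.5, and the other was MRPL11.

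MRPL49, a mitochondria-specific protein of the large subunit, had the largest fold change of the family in size, but through a single library. It had 8.43 and 26.0 FPKM with DMSO and 9.13 and 10.8 FPKM with SF1-8. Its log2 fold change was -0.78 with a standard error of 0.531, and it turned to 0.31 without the second DMSO library. The entry overlaps FAU and SYVN1. MRPL42, likewise specific to mitochondria, had 9.27 and 2.71 FPKM against 7.52 and 3.76 FPKM, a replicate fold of 3.42 with DMSO and 2.00 with SF1-8. MRPL19 had 3.45 and 9.35 FPKM against 7.74 and 3.54 FPKM, high in one library of each group. In these 3 genes the libraries of a group differed more than the groups.

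Other fold changes of the family's extremes also rested on a single library. MRPL27, a protein that in bacteria touches the peptidyl transferase centre, had 7.16 and 3.03 FPKM with DMSO and 7.78 and 6.83 FPKM with SF1-8, a log2 fold change of 0.56 with a standard error of 0.377. It was 0.099 without the second DMSO library and 1.25 without the first. MRPL35 had 17.9 and 9.30 FPKM against 9.70 and 10.9 FPKM, and its log2 fold change of -0.36 became 0.14 without the first DMSO library. MRPS25 had 7.57 and 9.20 FPKM against 8.17 and 13.3 FPKM, and its log2 fold change of 0.38 became -0.0062 without the second SF1-8 library. MRPL55 had 6.71 and 9.87 FPKM against 6.26 and 6.76 FPKM, and its log2 fold change of -0.33 became 0.033 without the second DMSO library.

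MRPS36, the gene that has left the ribosome, had 12.1 and 10.5 FPKM with DMSO and 10.2 and 5.51 FPKM with SF1-8. The groups did not overlap, but the second SF1-8 library was far below the first. Its log2 fold change was -0.50 with a standard error of 0.300, and edgeR's quasi-likelihood test gave an unadjusted p of 0.155. It was -0.12 without the second SF1-8 library and -1.01 without the first.

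**Figure D4:**
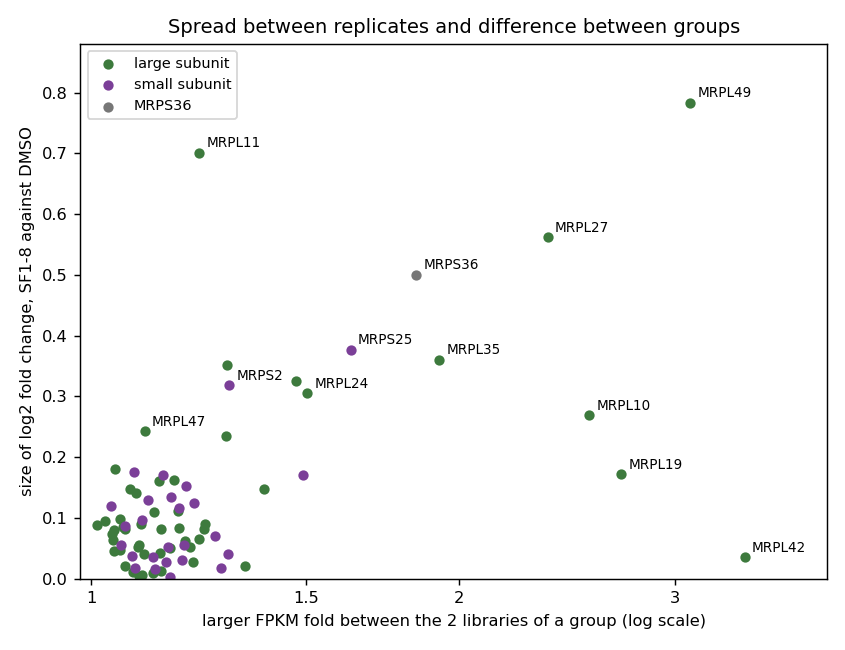
Size of the log2 fold change between SF1-8 and DMSO (vertical) against the larger FPKM fold between the libraries of a group (horizontal, log scale), 1 point a gene. Most points crowd at the lower left. MRPL11 is alone in having a large difference at a replicate fold of 1.23, while MRPL49, MRPL27, MRPS36 and MRPL35 reach theirs at replicate folds over 1.5.

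The genes are spread over 21 chromosomes, with at most 8 on any of them. In the longest coding transcript of GENCODE release 29 they had a median of 4 introns and a median coding length of 598.5 nucleotides, from 207 to 1449, and none lacked introns. A feature of some was a start close to that of a gene on the opposite strand. Head-to-head neighbours were counted only where the gene bodies did not overlap, with the minus-strand start at most 1000 bp below the plus-strand start. Such neighbours were found for 17 of the 78 genes (21.8%). They were found for 1470 of 19940 coding genes (7.37%), which were taken whether expressed or not. MRPL46 and MRPS11, proteins of different subunits, face each other on chromosome 15 with starts 34 bp apart. MRPL36 and MRPL47 face genes of the respiratory chain, NDUFS6 and NDUFB5, at 34 and 36 bp. MRPL27 faces EME1 at 6 bp, MRPL21 faces IGHMBP2 at 7 bp, and MRPL18 faces TCP1, a subunit of the cytosolic chaperonin, at 63 bp.

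The promoters were searched for motifs of the factors that are known to drive nuclear genes for mitochondria. RefSeq promoter windows of 300 bases, 250 before and 50 after the start (GRCh38.p14), were matched to 69 of the 78 genes, giving 85 windows. No window was matched for MRPL2, MRPL10, MRPL13, MRPL15, MRPL21, MRPL23, MRPL35, MRPS28 and MRPS36. On either strand, the ETS motif CCGGAAG, the core bound by GABP (NRF2), was found in 33 of the 85 windows (38.8%), against 12.9% of the windows of all coding genes and 15.8% of those whose gene passed the filter. The YY1 motif AAGATGGC was found in 23 windows (27.1%), against 3.60% and 4.45%. The NRF1 motif, the palindrome shown in capitals in the MRPL17 window, was found in 1 window (1.18%) against 1.49% and 1.79%. Motifs were matched exactly, so variants were not counted, and the motif of NRF1 was the longest. The sites of ETS and YY1 never shared a base, and 8 genes had both, while 26 of 69 had neither. They also differed in place, with 16 of 24 YY1 matches but 6 of 45 ETS matches beginning at or after the start of transcription. Matches were counted per window, so a site in overlapping windows of a gene, as in MRPL47, MRPS12 and MRPS22, was counted more than once.

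The windows of the 3 genes with the lowest p are given 5′ to 3′. Added is that of MRPL46, an example of a YY1 match beside the start of a gene with a head-to-head neighbour. The window of MRPL17, the one with an NRF1 match, is also given. Capitals mark a motif, in MRPL47 first YY1 on the opposite strand and then ETS, in MRPL46 YY1 and in MRPL17 NRF1. MRPL11 and MRPS2 hold none of the 3 motifs in these letters. The windows are chr3:179604589-179604888 on the minus strand for MRPL47, chr15:88467339-88467638 on the minus strand for MRPL46, chr11:6683291-6683590 on the minus strand for MRPL17, chr11:66438799-66439098 on the minus strand for MRPL11 and chr9:135499715-135500014 on the plus strand for MRPS2.
MRPL47: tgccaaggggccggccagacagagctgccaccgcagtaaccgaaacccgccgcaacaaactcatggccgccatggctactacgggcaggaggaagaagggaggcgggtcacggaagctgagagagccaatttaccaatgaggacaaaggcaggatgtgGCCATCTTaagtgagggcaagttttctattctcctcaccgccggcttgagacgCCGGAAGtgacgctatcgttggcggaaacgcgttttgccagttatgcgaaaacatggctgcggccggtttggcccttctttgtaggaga
MRPL46: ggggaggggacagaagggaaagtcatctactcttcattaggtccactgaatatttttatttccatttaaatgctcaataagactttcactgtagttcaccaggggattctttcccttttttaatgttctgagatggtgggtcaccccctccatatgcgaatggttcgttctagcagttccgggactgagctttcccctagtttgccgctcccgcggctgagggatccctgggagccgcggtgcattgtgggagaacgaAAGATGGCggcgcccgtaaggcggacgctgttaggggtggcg
MRPL17: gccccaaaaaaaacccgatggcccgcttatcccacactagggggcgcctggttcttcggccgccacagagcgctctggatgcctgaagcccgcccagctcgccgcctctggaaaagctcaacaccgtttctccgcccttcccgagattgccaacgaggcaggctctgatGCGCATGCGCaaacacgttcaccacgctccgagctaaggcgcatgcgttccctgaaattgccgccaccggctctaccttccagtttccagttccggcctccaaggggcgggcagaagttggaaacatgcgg
MRPL11: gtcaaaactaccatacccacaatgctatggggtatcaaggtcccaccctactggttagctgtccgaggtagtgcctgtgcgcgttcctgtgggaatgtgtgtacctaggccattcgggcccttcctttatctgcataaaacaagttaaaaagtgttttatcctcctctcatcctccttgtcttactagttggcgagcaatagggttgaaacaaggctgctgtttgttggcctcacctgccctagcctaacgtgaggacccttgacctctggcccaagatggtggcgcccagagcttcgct
MRPS2: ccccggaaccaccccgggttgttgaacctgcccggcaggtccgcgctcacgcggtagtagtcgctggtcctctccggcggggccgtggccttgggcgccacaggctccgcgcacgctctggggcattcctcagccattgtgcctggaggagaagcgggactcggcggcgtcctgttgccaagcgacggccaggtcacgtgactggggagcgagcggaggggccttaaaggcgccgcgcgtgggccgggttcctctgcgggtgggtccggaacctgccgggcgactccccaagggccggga

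Levels and responses were set side by side for genes with and without a match. The 30 genes with an ETS match had a median level of 11.999 FPKM and a median log2 fold change of 0.029, and the 39 without had 12.2 FPKM and 0.028. The 21 genes with a YY1 match had 13.6 FPKM and 0.047, and the 48 without had 10.2 FPKM and 0.019. These are descriptions, without a test. As for the factors, GABPA had 7.27 and 6.52 FPKM with DMSO and 6.79 and 7.15 FPKM with SF1-8, NRF1 had 5.01 and 4.99 against 4.85 and 4.77, and YY1 had 7.43 and 11.5 against 10.98 and 8.68. The groups overlapped in GABPA and YY1. None of the 12 regulators of nuclear genes for mitochondria that passed the filter, these 3 included, reached an unadjusted p under 0.05 in the edgeR quasi-likelihood test.

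**Figure D5:**
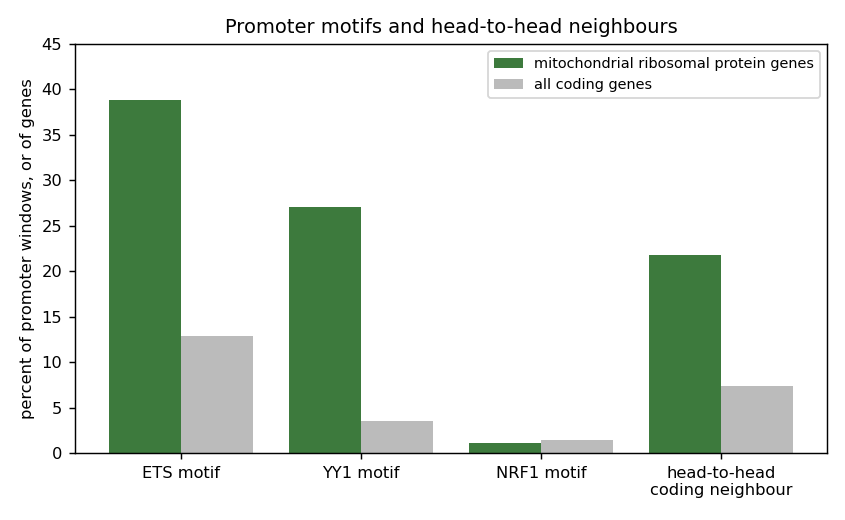
Percent of promoter windows with each motif, and percent of genes with a head-to-head coding neighbour, for the mitochondrial ribosomal protein genes (green) and for all coding genes (grey). ETS and YY1 stand at 38.8% and 27.1% against 12.9% and 3.60%, NRF1 at 1.18% against 1.49%, and head-to-head neighbours at 21.8% against 7.37%.

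Genes whose products work with the family were read against the same background of all entries, 1.78% higher and 2.54% lower at an unadjusted p under 0.05. Of the 5 mitoribosomal proteins that carry other symbols, AURKAIP1, CHCHD1, DAP3, GADD45GIP1 and PTCD3, none reached an unadjusted p under 0.05 in the edgeR quasi-likelihood test, and their median log2 fold change was -0.016, which turned to 0.027 without the second DMSO library. DAP3, a GTP-binding protein of the small subunit, had 21.7 and 14.97 FPKM with DMSO and 13.6 and 14.4 FPKM with SF1-8, without overlap. Of 31 genes for the assembly of the mitoribosome, 1 (3.23%) was higher at an unadjusted p under 0.05. Their median log2 fold change of 0.053 turned to -0.015 without the first DMSO library and to -0.10 after rescaling to a common sum. The gene was ERAL1, the chaperone of the small-subunit rRNA, with 25.3 and 26.3 FPKM against 31.0 and 32.4 FPKM, a log2 fold change of 0.32, a standard error of 0.087 and an adjusted p of 0.970 by edgeR's quasi-likelihood test.

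Of 17 mitochondrial translation factors, 2 (11.8%) were lower at an unadjusted p under 0.05 in the edgeR quasi-likelihood test, against 2.54% of all entries, and none was higher. Their median log2 fold change of 0.016 turned to -0.011 in limma on log2(FPKM + 1) and to -0.15 after rescaling to a common sum. MRRF, which recycles the ribosome after termination, had 3.76 and 3.32 FPKM with DMSO and 2.30 and 2.25 FPKM with SF1-8. Both SF1-8 libraries were lower, with a log2 fold change of -0.61, a standard error of 0.088 and an adjusted p of 0.401 by edgeR's quasi-likelihood test, and from 0.000788 in DESeq2 to 0.804 in limma on log2(TPM + 1) over the alternatives. The second, PDF, which removes the formyl group from new proteins, shares its entry with COG8, TMED6 and TERF2 and had 8.42 and 6.92 FPKM against 4.89 and 6.17 FPKM, with a log2 fold change of -0.44, which was -0.28 without the first SF1-8 library. The cytosolic ribosomal proteins had a median log2 fold change of 0.014 over 86 genes and the nuclear respiratory chain had one of 0.027 over 81, beside the 0.032 of the mitochondrial ribosomal protein genes, and after rescaling to a common sum both medians were below 0, at -0.14 and -0.13. At an unadjusted p under 0.05 in the edgeR quasi-likelihood test, RPL21 was higher and RPL22L1 and RPL29 were lower in the former list, and COX7B was higher and ATP5PB lower in the latter. These are 3.49% of the first list and 2.47% of the second, against 4.33% of all entries in either direction.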

How the data were processed

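RNA-seq was made from K562-U2AF1 S34F cells, with 2 libraries from DMSO and 2 from SF1-8, assigned to groups by the sample labels. The submitters' processing notes name cutadapt, FastQC, Bowtie2, HISAT2 and StringTie and the build hg38, while the counting tool and annotation version are not given in the sources used here. For each entry the authors deposited an FPKM value, normalized for length and depth, with 0.0001 in place of 0. They also deposited an estimated count per library, unnormalized, in whole numbers of which 4 is the commonest above 0, so that counting error is unknown. Counts and FPKM of an entry were in a fixed ratio across libraries to within 0.0116 on the log2 scale over 9226 entries with at least 500 counts. Of 64873 entries, 2095 without a gene name, with 0.372% of the counts, were not used, and 2088 name several genes. Reads shared with neighbours, antisense genes or processed pseudogenes (76 such symbols for 35 of the genes) cannot be separated in these values.

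Counts were normalized by TMM (factors 0.973 to 1.05), filtered by filterByExpr and compared by edgeR's quasi-likelihood test (edgeR 4.0.16, limma 3.58.1, DESeq2 1.42.0, R 4.3.3), with Benjamini-Hochberg adjustment over all 26167 entries tested. The steps were tested on simulated data with changes larger than any fitted for these genes, so that test does not cover changes of their size. A level is FPKM as deposited, and a fold change comes from the counts. Genes were named by a rule: those with an unadjusted p under 0.05, the 5 largest fold changes on each side, the 5 highest and the 5 lowest levels, the 5 entries of several genes with the highest counts, the MRPS18 paralogs, and MRPL12, MRPL58, MRPS12, MRPL44, MRPS30 and MRPS36 for their roles, and in other lists genes with an unadjusted p under 0.05. MRPL19, MRPL22, MRPL23, MRPL24, MRPL45, GABPA, NRF1, YY1 and DAP3 were added after their values were seen. The genes, lists and rule were chosen with earlier results of these data known. Alternatives were DESeq2, other size factors, no filter, a replicate block, counts divided by 4, entries of 1 gene, limma on log2 FPKM or TPM with pseudocounts of 1 and 0.1, TMM-scaled CPM for the overlap of libraries, and leaving out each library.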

Additional observations from a re-analysis of the deposited data

How the results depend on the processing

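The count of genes at an adjusted p under 0.05 was 0 in edgeR's quasi-likelihood test and in every alternative except DESeq2, which called 1, MRPL11. At an unadjusted p under 0.05, the 1 gene on the higher side became 2 without a filter on low counts and 0 with counts divided by 4 and in limma on log2(FPKM + 1), log2(FPKM + 0.1) and log2(TPM + 1). The 2 on the lower side became 1 with DESeq2. Leaving out each library gave 0 to 2 on the higher side, 0 without the second SF1-8 library, and 2 to 4 on the lower side, 4 without the first DMSO library. The labels do not say whether libraries with the same replicate number were handled together. The deviations of same-numbered libraries from their group means had a correlation of 0.016. Because a group has only 2 libraries, the crossed pairing gives the same value with its sign turned, -0.016. This correlation cannot settle whether libraries share more than the replicate number. With that number as a block, 3 genes were higher and 1 lower at an unadjusted p under 0.05, none passed the adjustment, and the median log2 fold change of the large subunit was 0.040.

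The median log2 fold change of the family, 0.032, was 0.0093 and 0.011 in limma with pseudocounts of 1 and 0.1, 0.0041 as a ratio of mean FPKM, and 0.0082 to 0.047 when a library was left out. Rescaling to TPM moved it to -0.12, the large subunit to -0.12 and the small subunit to -0.11, while the median of all entries moved to -0.13. For the large subunit it was 0.021 without a filter, 0.00032 with counts divided by 4, 0.042 over entries of 1 gene and -0.015 as a ratio of mean FPKM. Leaving out a library gave 0.011 to 0.034 for the large and 0.0045 to 0.081 for the small subunit.

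Of 181 fold changes of the 14 genes named by fold change under alternatives, 173 kept their direction and side of the adjusted threshold. The sign turned in 6, all when 1 library was left out. MRPL49 ran from -1.40 to 0.31 and MRPL55 from -0.61 to 0.033, both turned without the second DMSO library, and MRPL35 from -0.72 to 0.14, turned without the first. MRPL10 ran from -0.53 without the first SF1-8 library, and -0.23 without the second DMSO library, to 1.04. MRPS25 ran from -0.0062 without the second SF1-8 library to 0.69. MRPL11 and MRRF passed the threshold in DESeq2, and the cause was not tested. Of 84 medians of other lists, 60 moved by less than the spread between replicates. With 2 libraries a group, 9 of the 78 intervals reached beyond a 2-fold change.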
